A study of Mus musculus with 2 samples.

Results

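The guanylate-binding proteins (GBPs) and the immunity-related GTPases (IRGs) are interferon-induced GTPases, and 10 of their genes were examined in mouse cardiomyocytes (MCMs) in which *Ppp2r5d* had been knocked down. The 6 GBP genes were *Gbp2*, *Gbp3*, *Gbp4*, *Gbp5*, *Gbp6* and *Gbp7*, and the 4 IRG genes were *Ifi47*, *Igtp*, *Irgm1* and *Iigp1*. They are 10 of the 37074 gene names on the array and were taken by gene name. They were chosen from the measured values of siRNA-*Ppp2r5d* against siRNA-NC, the same contrast described here, so their change in that contrast is a description and not independent evidence. RNA came from MCMs transfected with siRNA-NC, a negative control siRNA, or with siRNA-*Ppp2r5d*, which targets the gene of a B′ regulatory subunit (B56δ) of protein phosphatase 2A. In both groups the medium was changed to glucose-free medium at 48 h and the cells were collected at 64 h after transfection. The MCMs were purchased, passaged cells kept in low serum, no interferon or other stimulus is named for these samples, and each group was 1 sample on 1 one-colour array. With 1 array per group no spread between cultures can be measured, so no test was run and no p-value is given.

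GBPs are large dynamin-like GTPases, and IRGs are smaller GTPases that act beside them. Interferon-gamma binds its receptor, the kinases JAK1 and JAK2 pass the signal on, and transcription factors that include IRF1 switch on GBP and IRG genes, most strongly in macrophages but in many other cell types too. The proteins are known for gathering on vacuoles that hold intracellular pathogens and helping to break them, and several IRGs also act on autophagy and on membranes of the host cell. Much less is known of them in cardiac muscle cells.

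A probe signal here is the background-corrected brightness of its spot as the scanner software gave it. The value after ± is the software's own error for that spot, which covers the reading of the spot and not differences between cultures. Fold changes were taken after each signal was divided by the 75th percentile of its array, 593 (siRNA-NC) and 519 (siRNA-*Ppp2r5d*), so a fall is smaller and a rise larger than in the plain ratio of the signals. A signal marked by the software as not well above background has no level of its own. There the fold change is a bound, set against the lowest signal that was well above background on that array, 14.9 (siRNA-NC) and 13.5 (siRNA-*Ppp2r5d*). Each bound takes the reading of the other array as exact and leaves out its error, so it can overstate the least change. Of the spots, 59.9% and 59.3% were well above background, none were saturated, and *Ppp2r5d* itself fell from 4701 ± 470.1 to 676 ± 67.7, 6.09-fold lower, in the direction of the labels.

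The GBP genes *Gbp2*, *Gbp3*, *Gbp4* and *Gbp6* and the IRG gene *Ifi47* were at least 2-fold lower with siRNA-*Ppp2r5d*, and none of the 10 was 2-fold higher. Over all genes read on the array, 1.46% were lower by as much and 1.07% higher. *Gbp5*, *Igtp*, *Irgm1* and *Iigp1* were lower by less than 2-fold, and *Gbp7* was not well above background on either array. Since RNA was taken from whole cultures, fewer cells that express these genes and less RNA per cell cannot be told apart. The 5 genes past 2-fold were each read by 1 probe of 60 bases. Their first 30 bases are shown because the result rests on these probes alone, in build mm9 and in the probe's own 5′ to 3′ direction.
Gbp2, chromosome 3, 142300719 to 142300778, plus strand: gtttctcctgtataatcttaagtgttcctc
Gbp3, chromosome 3, 142236072 to 142236131, plus strand: ttgttaaaaagagctcttgttaaaacgcac
Gbp4, chromosome 5, 105544852 to 105544911, minus strand: gtgtatatcagctattatttaagctacctt
Gbp6, chromosome 5, 105700081 to 105700140, minus strand: ctacttcgtctctattaatgcctgtgaaat
Ifi47, chromosome 11, 48910402 to 48910461, plus strand: taccacctgcctctgtgttaagagataacc

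GBP and IRG genes resemble each other in sequence, so the probes were compared. Over the 15 probes of the 10 genes, the longest run of bases shared with a probe of any other GBP or IRG gene was 7 to 10 of 60 bases, and no probe was a near copy of another. Whether a probe also binds the transcript of a related gene, and which exon or untranslated region it lies in, was not analysed here.

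*Gbp2*, whose lipid-anchored protein is recruited to vacuoles of *Toxoplasma*, had the largest fall by bound. Its signal went from 55.7 ± 6.32 with siRNA-NC to 11.9 ± 2.99 with siRNA-*Ppp2r5d*, where it was not well above background. The fall was therefore at least 3.62-fold, a log2 fold change of -1.86 or lower. *Gbp3* lies in the same gene cluster, and its signal went from 115 ± 11.9 to 36.0 ± 4.55. Both readings were well above background, and *Gbp3* was 2.80-fold lower, a log2 fold change of -1.48 ± 0.24. *Gbp4*, a GBP of the cluster on chromosome 5, went from 77.1 ± 8.27 to 23.3 ± 3.63, also well above background on both arrays. It was 2.90-fold lower, a log2 fold change of -1.54 ± 0.27. *Gbp6*, of the same cluster, read 32.2 ± 4.44 on the siRNA-NC array. With siRNA-*Ppp2r5d* it read 6.07 ± 2.79, not well above background. The bound was 2.10-fold lower with the siRNA-NC reading taken as exact, and the error of that reading could bring it inside 2-fold. For *Gbp3* and *Gbp4* the error ranges of the readings did not come near each other, whereas *Gbp6* passed 2-fold only narrowly because its siRNA-NC reading stood little above the floor.

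No such fall was read for the other 2 GBP genes. *Gbp5*, a GBP linked to assembly of the NLRP3 inflammasome, was read by 2 probes. The first went from 341 ± 34.2 to 289 ± 29.0, a log2 fold change of -0.05 ± 0.20. The second went from 62.7 ± 6.97 to 42.7 ± 5.04, a log2 fold change of -0.36 ± 0.23. Their mean was 1.15-fold lower with an SD of 0.22 on the log2 scale over the 2 probes. *Gbp7*, known for helping the NADPH oxidase assemble on phagosomes, read 6.66 ± 3.14 and 2.69 ± 2.70. Neither was well above background, and no fold change is given for it.

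**Figure D1:**
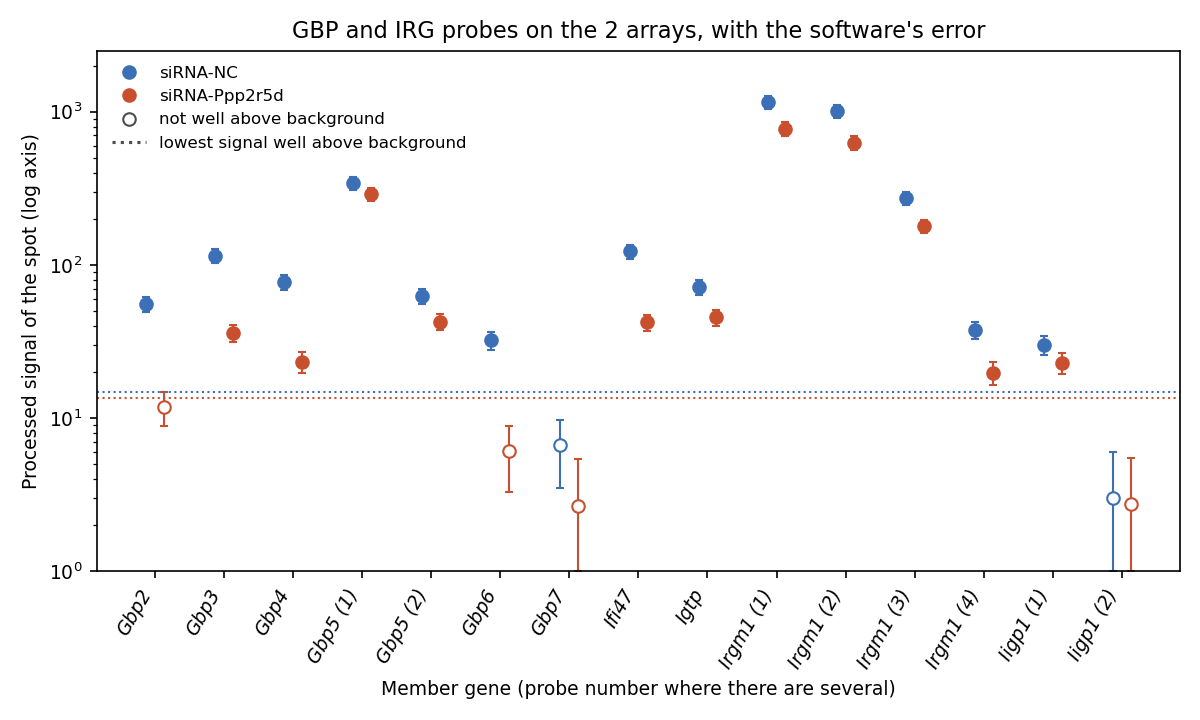
Processed signal of each of the 15 probes of the 10 genes (log axis) on the siRNA-NC array (blue) and the siRNA-*Ppp2r5d* array (red), with the scanner software's error as bars, cut at 1. Open circles are readings not well above background, and dotted lines mark the lowest signal well above background on each array (14.9 and 13.5). Every probe above the lines in siRNA-NC read lower in siRNA-*Ppp2r5d*, and *Gbp2* and *Gbp6* dropped under the line. The signals are not scaled, and the siRNA-*Ppp2r5d* array was dimmer (75th percentile 519 against 593). A gene unchanged after scaling therefore also reads lower here.

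Among the IRGs, *Ifi47* stood apart. It encodes IRGD, an effector IRG with the usual lysine in its nucleotide-binding loop, and its signal went from 123 ± 12.7 to 42.4 ± 5.04. It was 2.54-fold lower, a log2 fold change of -1.34 ± 0.23, with both readings well above background. *Iigp1*, which encodes the other well-known effector IRG, IRGA6, did not follow it. One of its probes, on chromosome 18, went from 29.98 ± 4.27 to 23.0 ± 3.57, a log2 fold change of -0.19 ± 0.30, and the other read 3.02 and 2.74, not well above background.

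The regulatory IRGs carry methionine in place of that lysine and hold the effector IRGs inactive on the cell's own membranes. *Igtp*, which encodes IRGM3, went from 71.8 ± 7.81 to 45.5 ± 5.36, 1.38-fold lower with a log2 fold change of -0.47 ± 0.23. *Irgm1*, also linked to autophagy, was read by 4 probes. Its probes went from 1149 to 777, from 1007 to 629, from 274 to 179 and from 37.6 to 19.9, all well above background. Their log2 fold changes were -0.37, -0.49, -0.42 and -0.73, a mean of -0.50 with an SD of 0.16 over the 4 probes, or 1.42-fold lower. The 4 *Irgm1* probes had the same direction, and none was past 2-fold.

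How far a dim spot wanders on these arrays can be read from probes that were printed in 10 spots. Over 293 such probes the median SD of the log2 fold change among spots was 0.036. Over the 9 of them with a siRNA-NC signal between 25 and 150, the range of most GBP and IRG probes, it was 0.16, with a 95th percentile of 0.27. The log2 fold changes of *Gbp3*, *Gbp4* and *Ifi47* were several times larger than this, and *Igtp* was larger. The means of *Gbp5* and *Iigp1* lay between the median and the 95th percentile, while the *Gbp5* probe in that signal range, at -0.36 ± 0.23, lay beyond it. These are percentiles of SDs and not of fold changes. Only spots well above background on both arrays entered them, so the spread of dim probes may be understated. This spread is between spots of 1 labelled RNA and says nothing of a second culture.

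Set against the whole array, 21701 genes were read well above background by 1 array or both. Of these, 1.46% (316 genes) were lower by 2-fold or more and 1.07% (233 genes) higher by as much, against 5 and 0 of the 9 GBP and IRG genes measured. Among genes with a mean siRNA-NC signal of 25 to 150, a range set after the values were seen, 3.65% were 2-fold lower. Of the GBP and IRG genes, 8 lay in that range and 5 of them were past 2-fold. The 7 genes well above background on both arrays all had a log2 fold change below 0, with a median of -0.50. Over all such genes the median was 0.03 and 45.9% were below 0, and in the signal range 54.5% were below 0. Because the members were picked from this contrast, nothing is read from the distance between these shares. Just inside 2-fold stood *Gbp6* at a bound of 2.10-fold and just outside *Irgm1* at 1.42-fold.

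**Figure D2:**
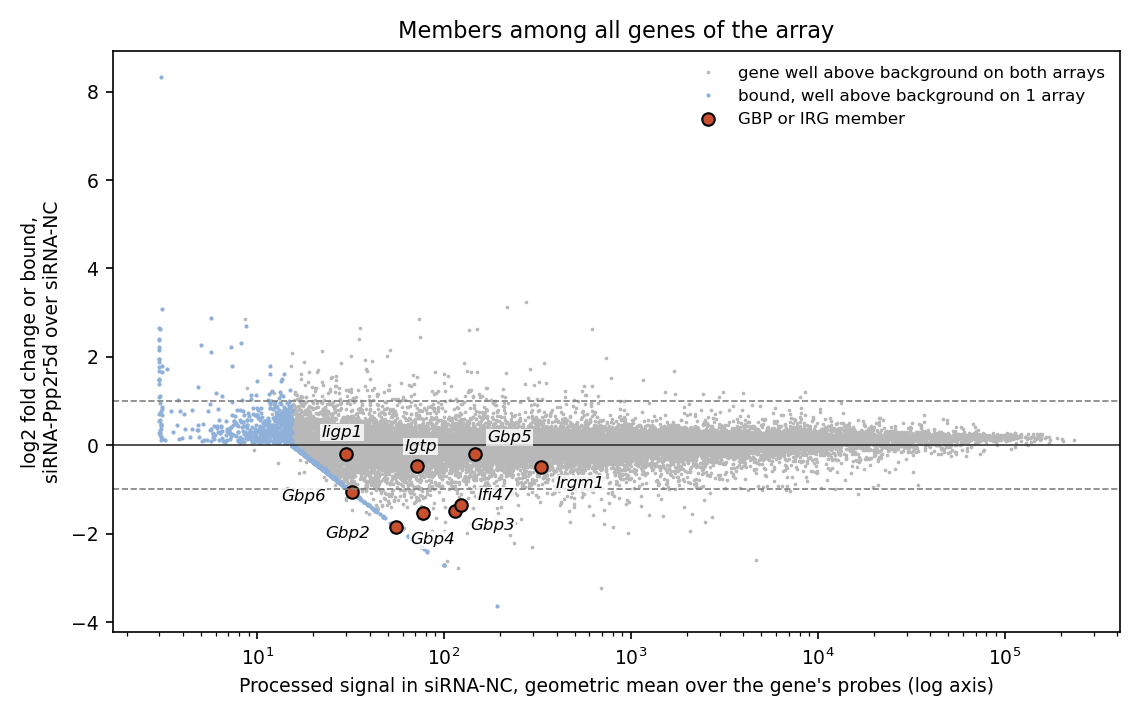
Log2 fold change of every gene (siRNA-*Ppp2r5d* over siRNA-NC) against its siRNA-NC signal (log axis). Grey points are genes well above background on both arrays, blue points are bounds for genes well above background on 1 array, red circles are the 9 GBP and IRG genes with a value, and dashed lines mark 2-fold. The genes past 2-fold sit at siRNA-NC signals from 32.2 to 123, where the grey cloud is also wide, and the slanted blue line is where the bounds fall by their construction.

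The size of these falls depended on how dim signals were treated. When signals were corrected with normexp and an offset of 50, which adds to every spot an amount like the *Gbp2* signal itself, none of the 10 genes was past 2-fold. *Gbp3* was then at -0.70, *Ifi47* at -0.63, *Gbp4* at -0.56, *Gbp2* at -0.49 and *Gbp6* at -0.27, still below 0, while 0.207% of all genes were 2-fold lower. The correction and the offset were changed together, and their parts were not separated. Restricted to genes well above background on both arrays, 3 members were at least 2-fold lower, *Gbp3*, *Gbp4* and *Ifi47*, beside 1.07% of all such genes (218 of 20350).

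**Figure D3:**
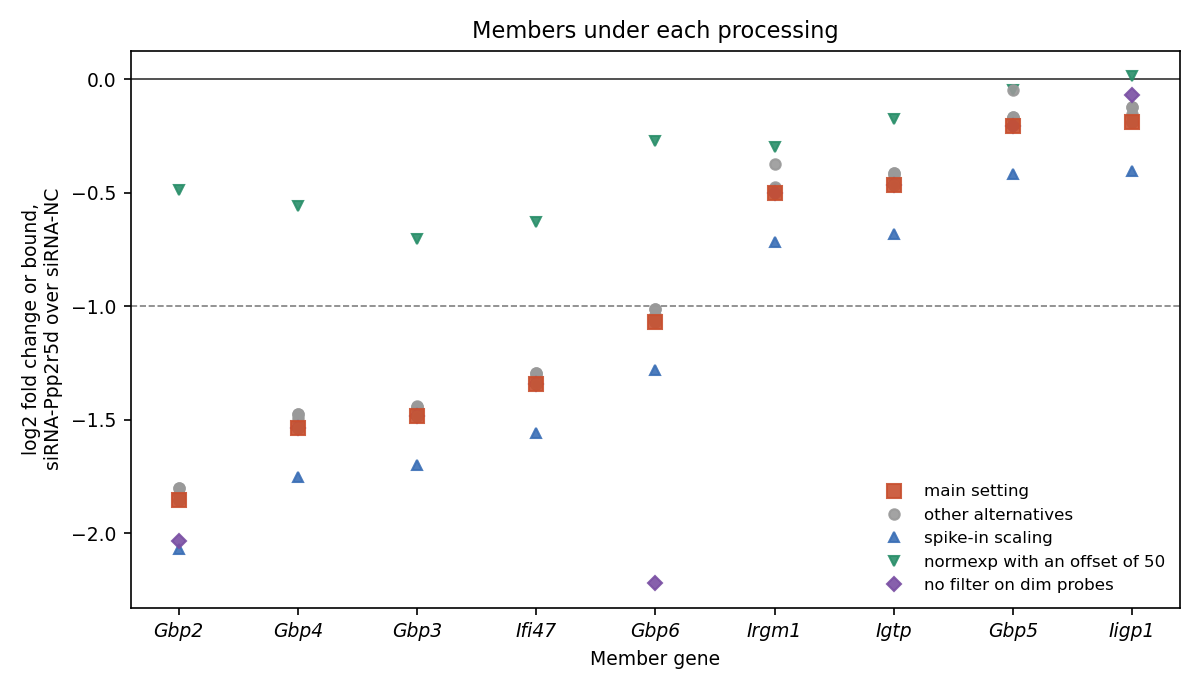
Log2 fold change or bound of the 9 GBP and IRG genes with a value (siRNA-*Ppp2r5d* over siRNA-NC) under each processing. Red squares are the values reported, green triangles the normexp correction with an offset of 50, blue triangles scaling to spike-in probes, purple diamonds the values with dim probes kept, and grey circles the other alternatives. The 5 genes at the left lie under the dashed 2-fold line except under normexp, where the 9 genes lie between -0.70 and 0.01.

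The family has more genes than these 10, and they did not move as a block. Of 20 other GBP and IRG genes listed, 18 were on the array and 14 had a value or a bound. None was 2-fold lower and 1 was 2-fold higher. At a siRNA-NC signal like that of *Tgtp2* (29.4) or below, however, the floor kept any gene from being counted as 2-fold lower. Bounds lay in both directions, 2 lower and 2 higher. Among them *Irgc1* went from 21.9 ± 3.71 to 2.77 ± 2.78, not well above background, a bound of only 1.42-fold lower. The 10 measured on both arrays split evenly in direction, 5 below and 5 above 0, with a median log2 fold change of 0.01. The lowest were *Irgm2*, which encodes another regulatory IRG and went from 31.6 ± 4.41 to 15.2 ± 3.17 (-0.86 ± 0.36), and *Tgtp2*, which encodes an effector IRG, from 29.4 ± 4.25 to 15.1 ± 3.10 (-0.77 ± 0.36). *Gbp8* was at -0.56 ± 0.27, *Gbp11* at -0.44 ± 0.22 and *Gbp10* at 0.06 ± 0.25. *Gbp2b* read 13.3 and 8.16 and *Gbp9* read 4.75 and 2.78, none well above background. The gene that was higher was *Gm4951*, a predicted IRG gene near *Iigp1*. One of its probes went from 11.7 ± 3.26, not well above background, to 39.8 ± 4.89, at least 3.05-fold higher, and its other probe was not well above background on either array. *Irgq* was at -0.01. Of the genes measured on both arrays, those above 0 apart from *Gbp10* had predicted or clone names. They were *Gm5431* at 0.23, *Gm4841* at 0.11, *9930111J21Rik1* at 0.05 and *F830016B08Rik* at 0.02. The *Gm4841* value came from a probe that read 9208 and 8724. Its other probe read 3.04 and 2.70, not well above background.

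**Figure D4:**
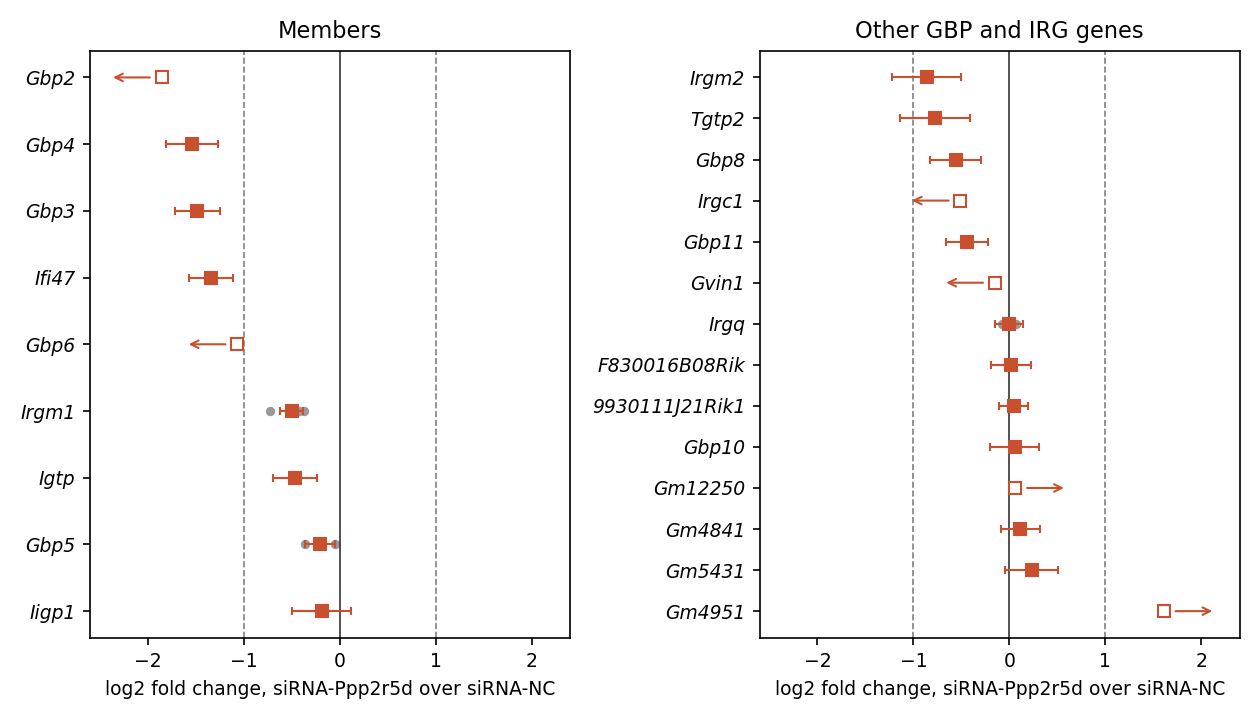
Log2 fold change (siRNA-*Ppp2r5d* over siRNA-NC) of the 9 GBP and IRG members with a value (left) and of 14 other GBP and IRG genes (right). Filled squares are means over probes well above background on both arrays with the software's error, grey dots the single probes, open squares with arrows are bounds, and dashed lines mark 2-fold. The 9 members lie at or under -0.19, while the other genes reach from -0.86 to a bound of 1.61. The members were chosen from this contrast, so nothing is read from the difference.

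Among the more distant relatives, the atlastins, which fuse membranes of the endoplasmic reticulum, were at -0.52 for *Atl1*, 0.09 for *Atl2* and 0.16 for *Atl3*. *Mx2*, an interferon-induced dynamin-like GTPase against viruses, had probes that disagreed. One went from 63.3 ± 6.998 to 129 ± 13.2, 2.32-fold higher, and the other from 36.3 ± 4.68 to 2.75 ± 2.75, at least 2.36-fold lower. *Mx1* was not well above background on either array.

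The genes lie in clusters, and falls past 2-fold did not run through all genes read in a cluster. On chromosome 3, probes in order along the chromosome were *Gbp5*, *Gbp7*, *Gbp3*, *Gbp2b* and *Gbp2*. Of these, *Gbp7* and *Gbp2b* were not well above background on either array. Within 119353 bases the log2 fold change went from -0.05 and -0.36 on the 2 *Gbp5* probes at one end to a bound of -1.86 at the other. Within 150000 bases of these probes lay *Ccbl2*, an aminotransferase gene, and *Gtf2b*, which encodes the general transcription factor TFIIB, with log2 fold changes of -0.28 for *Ccbl2* and of -0.62 and 0.05 for the 2 probes of *Gtf2b*. On chromosome 5 the order was *Gbp8*, *Gbp9*, *Gbp4*, *Gbp10*, *Gbp6* and *Gbp11*, so that *Gbp10*, at 0.06, lay between the 2 genes past 2-fold. At the ends, *Gbp8* at -0.56 and *Gbp11* at -0.44 were lower by less than 2-fold. *Gbp9* was not well above background on either array. One probe there without a gene symbol, between *Gbp4* and *Gbp10*, went from 32.5 to 6.33, at least 2.11-fold lower, and was picked out after its value was seen. On chromosome 11, *Irgm1* and *Ifi47* lay 234967 bases apart at the outer ends of their probes, with *Tgtp2* and predicted IRG genes between them. The 19 probes of other genes around them that both arrays read well above background had a median log2 fold change of 0.13, from -0.57 to 0.44. Around *Igtp*, elsewhere on chromosome 11, *Irgm2* lay beside it and 19 such probes had a median of 0.03, from -0.63 to 1.05.

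No gene of the pathway that turns the family on was past 2-fold by the mean of its probes. The list of interferon-gamma receptor and JAK-STAT signalling held 20 genes, and 18 were well above background on both arrays. Of these, 10 were below 0 and 8 above, and the median log2 fold change was -0.12. *Ifng*, the ligand, went from 92.9 ± 9.79 to 140 ± 14.3, 1.72-fold higher (0.78 ± 0.21). The receptor chains were at 0.05 ± 0.20 for *Ifngr1* and -0.17 ± 0.20 for *Ifngr2*, within the error of their spots. Of the kinases at the receptor, *Jak1* was at 0.12 ± 0.20 and *Jak2* at -0.45 and -0.48 on its 2 probes, a mean of 1.38-fold lower. *Irf1*, itself interferon-induced and an activator of GBP and IRG promoters, had probes that disagreed. Its bright probe went from 5252 to 4342 (-0.08 ± 0.20) and its dim probe from 96.3 to 198 (1.23 ± 0.21). The lowest gene of the list was *Ptpn6*, the phosphatase SHP-1, at -0.53 ± 0.30. The highest was *Nlrc5*, the activator of MHC class I genes, at 0.79 over probes at 1.09 and 0.49. *Irf8* and *Ciita* were not well above background on either array.

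Other interferon-induced genes, 40 listed and 30 well above background on both arrays, had a median log2 fold change of 0.03, with 14 below and 16 above 0. Of them 3 were 2-fold lower and none 2-fold higher, beside 1.46% and 1.07% of all genes read on the array. *Psmb9*, an inducible subunit of the immunoproteasome, went from 69.1 ± 7.54 to 24.4 ± 3.67, 2.47-fold lower, and its second probe was not well above background on either array. *Psmb8*, another such subunit, went from 84.2 ± 8.96 to 36.5 ± 4.54, 2.02-fold lower. At a log2 fold change of -1.01 ± 0.24, its error reached to both sides of the 2-fold line. *Xaf1*, which binds the apoptosis inhibitor XIAP, went from 332 ± 33.3 to 117 ± 12.0, 2.49-fold lower, with another probe at least 1.54-fold lower and the last not well above background. In the same list *Psmb10* was at 0.07, *Cxcl9* at -0.02, *Cxcl10* at 0.08, *Isg15* at -0.13 and *Ifit2*, the highest, at 0.46. Lower, but by less than 2-fold, were among others *Nos2* at -0.67, *Tap2* at -0.56, *Oasl2* at -0.56 and *Tap1* at -0.40. The genes named here that were not past 2-fold were picked after their values were seen.

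The partners through which the proteins work lay near or above 0. Of 18 genes for the autophagy conjugation machinery that places GBPs and IRGs, for adaptors and for the inflammasomes they feed, 16 were well above background on both arrays. None was past 2-fold, and the median log2 fold change was 0.15. The lowest was *Atg5*, a component of the conjugation complex, at -0.15 ± 0.20, and the highest *Casp1*, the inflammasome protease, at 0.68 ± 0.21. The 5 enzymes that attach and process the prenyl anchors of some GBPs ranged from -0.09 for *Icmt* to 0.21 for *Fnta*, with a median of 0.08.

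**Figure D5:**
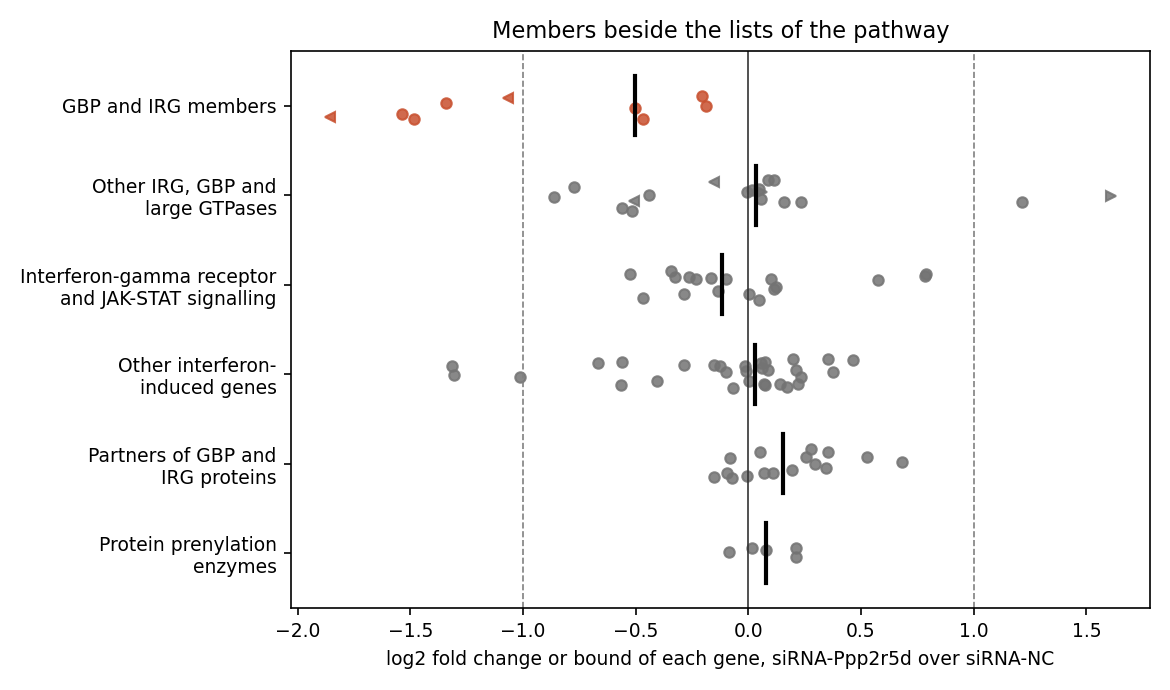
Log2 fold change (siRNA-*Ppp2r5d* over siRNA-NC) of each gene of the GBP and IRG set (red) and of the 5 lists around it (grey). Circles are genes well above background on both arrays, triangles are bounds pointing in their direction, black bars are medians over the circles, and dashed lines mark 2-fold. The median of the set is -0.50, and the medians of the lists lie between -0.12 and 0.15. The set was chosen from this contrast, so nothing is read from the difference.

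Certain DNA motifs mark the promoters of many interferon-induced genes, and they were searched in the RefSeq promoters of build GRCm38.p6, a later build than that of the probe positions, from 250 bases before to 50 bases after each start. The interferon-stimulated response element is bound by IRF proteins, and its core was taken as GAAANNGAAA. The gamma-activated site marks genes that respond to interferon-gamma and was taken as TTCNNNGAA. Both were searched on both strands, and overlapping matches were counted. Of all 32851 promoters, 3.44% held the first and 8.30% the second. Of the 10 genes, 7 had an entry, and *Gbp4*, *Gbp6* and *Iigp1* had none. Of these 7, 6 held the first motif and 3 held both. The 100 bases before the start are shown for 6 of them, in the direction of the gene with both motifs in capitals.
Gbp2, chr3:142620563-142620662, plus strand: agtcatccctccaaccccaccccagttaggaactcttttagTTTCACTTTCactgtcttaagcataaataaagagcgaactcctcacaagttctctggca
Gbp3, chr3:142559944-142560043, plus strand: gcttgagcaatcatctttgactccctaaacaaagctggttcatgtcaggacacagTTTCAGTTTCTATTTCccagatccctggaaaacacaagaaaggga
Gbp5, chr3:142496834-142496933, plus strand: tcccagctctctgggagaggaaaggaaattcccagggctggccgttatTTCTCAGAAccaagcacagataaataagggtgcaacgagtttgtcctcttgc
Ifi47, chr11:49076487-49076586, plus strand: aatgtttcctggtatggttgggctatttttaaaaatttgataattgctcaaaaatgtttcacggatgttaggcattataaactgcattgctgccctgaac
Igtp, chr11:58199456-58199555, plus strand: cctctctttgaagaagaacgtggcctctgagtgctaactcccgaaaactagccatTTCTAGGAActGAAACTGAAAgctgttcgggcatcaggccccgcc
Irgm1, chr11:48871421-48871520, minus strand: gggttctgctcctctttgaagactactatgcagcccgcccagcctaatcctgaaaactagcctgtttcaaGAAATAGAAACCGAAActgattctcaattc

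The first motif began at position -59 in *Gbp2*, at -45 and -39 in the first of 2 promoters of *Gbp3*, and at -30 and -24 in *Irgm1*, each of these pairs overlapping. In the GBP promoters it read on the strand opposite to the gene and in the IRG promoters on the strand of the gene. *Igtp* held it at -34 next to a gamma-activated site at -45. The same spacing stood in its relatives outside the set, with -64 and -75 in *Irgm2* and -70 and -81 in *Tgtp2*. *Gbp5* held the first motif at -165 and gamma-activated sites at -245 and -52, and *Gbp7* held the first at -53 and the second at -106 and -87. The promoter of *Ifi47* and the second promoter of *Gbp3* held neither in this window. Thus *Gbp2* and *Gbp3*, which were past 2-fold, held the first motif, and so did *Gbp5*, *Igtp* and *Irgm1*, which were not. *Gbp4* and *Gbp6*, also past 2-fold, had no promoter entry to search. Over the array, 1.38% of the 435 measured genes with the first motif were 2-fold lower, and 1.52% of the 11363 with a promoter entry but without it. A match to these letters is not a binding site, and none was tested here.

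The labelled cell type was checked against its markers. Of 8 cardiomyocyte markers 7 were well above background on 1 array or both, *Actc1*, *Tnnt2*, *Nkx2-5* and *Gata4* among them. *Myl2* did not reach that mark on either array, and *Myh6* and *Ryr2* did not on the siRNA-NC array. The summed level of the cardiomyocyte markers, relative to each array's 75th percentile, was 15.4 with siRNA-NC and 15.2 with siRNA-*Ppp2r5d*. Sums of different lists run over different numbers of probes. Markers of other cells were also read, 5 of 7 for fibroblasts, 4 of 4 for smooth muscle and 6 of 7 for macrophages and leukocytes, against 2 of 5 for T and NK cells and 2 of 5 for endothelium. With siRNA-*Ppp2r5d* the smooth muscle markers *Cnn1* and *Tagln* were 5.32-fold and 1.80-fold higher and *Myh11* 1.30-fold lower, with *Acta2* at a log2 fold change of -0.02, and their summed level went from 295 to 301. Of the fibroblast markers *Lum* was 2.12-fold and *Pdgfra* 1.54-fold higher, *Col1a1*, *Col1a2* and *Dcn* had log2 fold changes from -0.31 to -0.13, and the sum went from 535 to 533. Macrophages are among the cells in which interferon-gamma induces GBP and IRG genes most strongly. The summed level of the macrophage and leukocyte markers, relative to each array's 75th percentile, went from 23.8 with siRNA-NC to 22.4 with siRNA-*Ppp2r5d*. Within that list *Cd68* was 1.71-fold lower and *Lyz2* 1.60-fold lower, *Ptprc*, *Csf1r*, *Cd14* and *Itgam* had log2 fold changes from -0.06 to 0.13, and *Adgre1* was not well above background on either array. The value of *Ptprc* rested on 1 of its 7 probes, that of *Cd68* on 2 of 3, and those of *Itgam* and *Lyz2* each on 1 of 2. The T and NK cell markers, the cells that make interferon-gamma, summed to 0.275 and 0.347, and *Nkg7*, *Klrb1c* and *Ncr1* were not well above background on either array. The part of other cell types in the GBP and IRG values was not tested.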

How the data were processed

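Cy3-labelled RNA of MCMs given siRNA-NC or siRNA-*Ppp2r5d* was hybridised to Agilent SurePrint G3 Mouse v2 arrays, 1 per group, with the groups as the labels name them. The authors deposited the intensity of every spot from Feature Extraction 10.7.1.1, background-corrected on each array without normalization across arrays, with its error, marks for background, saturation and outliers, and the position in mm9. They also deposited log2 values of 56605 probes, which differed from quantile-normalized log2 intensities by a median of 1.4e-05. These served as an alternative.

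Control spots and outlier spots (126 for siRNA-NC, 95 for siRNA-*Ppp2r5d*) were left out. Log2 intensities were averaged over spots of a probe, the 75th percentile over probes was subtracted, and a gene's value was the mean of its probes that passed background on both arrays. Where they passed on 1 array, a bound was set. A gene past 2-fold was counted as lower or higher, with no test. The number of arrays limits the precision.

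The members, the lists and the rule for naming genes were chosen with earlier results of these data known. Named were the 10 members, *Ppp2r5d*, 6 genes of the receptor pathway (1 is not reported here), and from each list the genes past 2-fold or otherwise the lowest and the highest. Any other gene named was picked with its value in view. Of 37074 gene names, 23666 are symbols in the RefSeq table for GRCm38, used for synonyms. Promoter sequences are RefSeq's. Protein sequences were not used here. Alternatives were quantile and cyclic loess normalization, centring on the median of detected probes, spike-in scaling, normexp, the authors' log2 values, outlier spots kept, 2 filters on dim probes, the brightest probe and other fold thresholds. The gene step was tested on simulated data in which only genes brighter than the members past 2-fold were changed. Both arrays there carried the same background marks, so bounds were not tested. R 4.3.3 with limma 3.58.1, Python, NumPy, pandas and matplotlib were used.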

Additional observations from a re-analysis of the deposited data

How the results depend on the processing

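Under 7 of the 10 other ways of processing (quantile and cyclic loess normalization, centring on detected probes, spike-in scaling, the authors' log2 values, outlier spots kept and the brightest probe of a gene) the same 5 genes, *Gbp2*, *Gbp3*, *Gbp4*, *Gbp6* and *Ifi47*, were at least 2-fold lower, and none of the 10 members was 2-fold higher under any of the alternatives run. The number 2-fold lower was 0 with normexp and an offset of 50, 3 with only genes well above background on both arrays, 6 with dim probes kept, where *Gbp7* was added, 5 at 1.5-fold and 0 at 4-fold. Over all genes 5.42% were lower at 1.5-fold and 0.12% at 4-fold. The median log2 fold change of genes measured on both arrays, -0.50, was -0.72 with spike-in scaling, -0.30 with normexp, -1.23 with dim probes kept, which adds the dim genes, and -0.47 with the brightest probe of each gene. Spike-in scaling shifts every gene by the same amount and moved the median of all genes to -0.19. Of 81 values of single genes under the alternatives, 37 moved by no more than 0.036, the median SD between spots over all probes printed in 10 spots, 43 moved further and 1 changed sign, *Iigp1*, at 0.0148 with normexp. Over all genes 316 were 2-fold lower, against 628 with spike-in scaling, 45 with normexp and 1119 with dim probes kept, and 233 were higher, against 134, 67 and 957. No paired analysis was possible because each group has 1 array, and for the same reason no replicate could be left out. At a siRNA-NC signal as low as that of *Gbp6* (32.2), a fall much beyond 2-fold reaches background and can only be bounded.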
